A study of Mus musculus with 6 samples.

Results

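The 7 genes described here, of varied function, were near zero in melatonin-treated cells and clear in vehicle-treated cells: Ldoc1, Disp2, Degs2, Plcd4, Sprn, Gm28042 and Ly6c2. They were 7 of the 16381 genes in the table, and they were chosen by that difference in normalized counts in these same 6 samples, so their levels are a description and carry no test. The samples were aILC2s, the activated group 2 innate lymphoid cells that make type 2 cytokines in the lung. According to the methods, they came from female wild type BALB/c mice of 6 to 8 weeks that received 0.5 µg of IL-33 intranasally per day for 3 days, and they were sorted as CD45+ lineage-negative ST2+ CD127+ cells. Both groups were then cultured for 24 h, 3 samples with 250 µM melatonin and 3 with DMSO as the vehicle. Nothing in the sources used here says whether the 3 samples of a group came from separate animals, so every p-value below measures the spread between these samples, which may be technical. The numbers in the library names were 20 to 22 for melatonin and 32 to 34 for vehicle, so a processing batch and the treatment cannot be told apart.

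The 7 genes belong to different families. Ldoc1 is an X-linked gene that derives from the gag gene of an ancient retrotransposon, Disp2 is a relative of Dispatched, which releases lipid-anchored Hedgehog ligands from the cell that makes them, and Degs2 is an enzyme that desaturates and hydroxylates ceramides. Plcd4 is a delta-type phospholipase C, which cleaves a membrane phosphoinositide into a calcium-releasing messenger and diacylglycerol, Sprn encodes Shadoo, a membrane-anchored relative of the prion protein that is known from the brain, and Ly6c2 encodes a membrane-anchored protein of the Ly6 family that is known from monocytes and memory lymphocytes. Gm28042 is annotated as a readthrough gene that joins Jmjd7, a dioxygenase gene, to Pla2g4b, a phospholipase A2 gene.

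Each sample held an estimated 17056267 to 20511711 counts. All values below are normalized counts, which are read counts estimated by the authors' quantifier and scaled by 1 factor for each sample. An estimated count of 3 or fewer in a sample was taken as the floor. In the melatonin samples, transcripts of Xist, the RNA of the inactive X chromosome, were at 0, 579 and 1091, and those of the Y-linked Ddx3y were at 1071, 0 and 0. In the vehicle samples, Xist was at 13.6, 7.46 and 5.81 and Ddx3y at 861, 907 and 746. Transcripts of a Y-linked gene were thus present in all vehicle samples and in melatonin replicate 1, whereas the methods name female mice. Results were therefore also computed without melatonin replicates 2 and 3. The ILC2 marker list was detected in full, with 14 of 14 genes listed and sums of 226158 to 241140 with vehicle and 153134 to 172067 with melatonin. In it, 9 of 14 tested genes were called lower and 2 higher, where the shares over all genes were 24.7% and 24.5%.

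All 7 genes had every melatonin sample below every vehicle sample, which is what they were picked for. Among all 14419 genes tested, 30.3% had every melatonin sample below every vehicle sample, 24.7% were called lower and 24.5% were called higher (limma, adjusted p under 0.05). The highest melatonin value among the 7 genes was 5.03, for Ldoc1, and the lowest vehicle value was 35, for Gm28042. All 7 passed the filter on low values, which asked for 10 or more normalized counts somewhere among the 6 samples, and they did so through the vehicle samples. In these bulk samples, fewer cells of a type and less RNA per cell cannot be told apart. Of the 7, 4 genes, Disp2, Degs2, Sprn and Gm28042, were at or under the floor in all 3 melatonin samples, and the other 3, Ldoc1, Plcd4 and Ly6c2, were above it in at least 1.

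**Figure D1:**
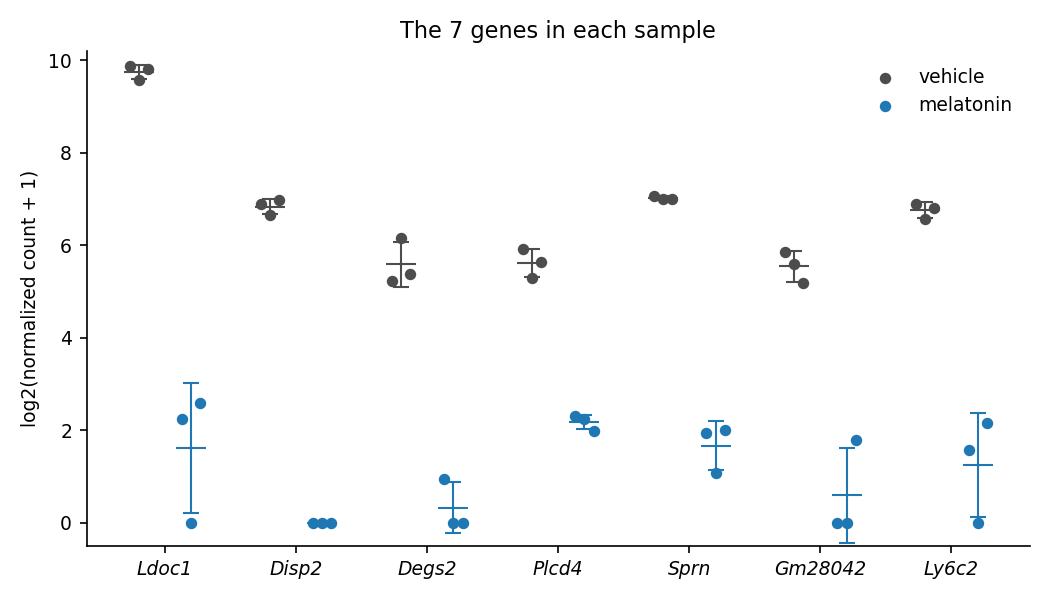
Normalized counts of the 7 genes in each of the 3 vehicle and 3 melatonin samples, on a log2 scale after adding 1. Points are samples, and bars are the mean and SD of the log2 values. The groups do not overlap for any of the 7 genes, melatonin values lie at or below 5.03 and vehicle values at or above 35 normalized counts.

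Ldoc1 (ENSMUSG00000057615, GRCm39 chrX:60747229-60754561, plus strand) had the highest level per kb of exon among the 7 with vehicle. Its normalized count was 929, 755 and 893 in vehicle replicates 1, 2 and 3, and 3.74, 0 and 5.03 in melatonin replicates 1, 2 and 3. It was high in every vehicle sample and almost absent from every melatonin sample. Against melatonin replicate 1 alone, which held Y-linked transcripts as the vehicle samples did, its log2 difference was -7.50. The mean was 859 ± 91.6 with vehicle and 2.92 ± 2.61 with melatonin (SD, n = 3 each). The difference on the log2(normalized count + 1) scale over all samples was -8.13, the lowest among the 14419 genes tested at this pseudocount. From summed estimated counts, the level was 284-fold lower with melatonin.

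Disp2 (ENSMUSG00000040035, chr2:118609698-118641776, plus strand) was the only member with no count in any melatonin sample. Its normalized count was 117, 99.3 and 124 in the vehicle samples and 0 in all 3 melatonin samples. With the floor of 3 counts per library in place of 0, the mean of 113 ± 12.6 with vehicle (SD, n = 3) was at least 37.4-fold higher than with melatonin. The log2 difference of -6.83, which depends on the added 1, stood at rank 3 of the genes tested.

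Degs2 (ENSMUSG00000021263, chr12:108644970-108668586, minus strand) had the most uneven vehicle level of the 7. Its normalized count was 36.3, 69.7 and 40.6 with vehicle and 0.934, 0 and 0 with melatonin. Vehicle replicate 2 stood above the other vehicle samples, and the 3 melatonin samples together held 1 estimated count. The mean was 48.9 ± 18.2 with vehicle and 0.311 ± 0.539 with melatonin (SD, n = 3 each). The ratio was 147, and the log2 difference was -5.26. The exact 95% interval of that ratio, 25.9 to 5826, covers counting error only and is no test, since these counts chose the gene.

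Plcd4 (ENSMUSG00000026173, chr1:74581734-74606997, plus strand) had the smallest difference of the 7. Its normalized count was 59.1, 38.2 and 48.5 with vehicle and 3.9, 3.72 and 2.97 with melatonin. It kept a few estimated counts in every melatonin sample, with values close to each other. The mean was 48.6 ± 10.5 with vehicle and 3.53 ± 0.496 with melatonin (SD, n = 3 each), 13.1-fold lower with melatonin. Its log2 difference was -3.44, rank 155 of the genes tested.

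Sprn (ENSMUSG00000045733, chr7:139730534-139734790, minus strand) had the most even vehicle level. Its normalized count was 133, 126 and 126 with vehicle and 2.8, 1.09 and 3.02 with melatonin. No melatonin sample rose above the floor. The mean was 128 ± 3.94 with vehicle and 2.3 ± 1.05 with melatonin (SD, n = 3 each). It was 54.5-fold lower with melatonin, with a log2 difference of -5.34. The neuronal marker list, given here because Shadoo is known from the brain, had 2 of 6 genes listed, Tubb3 and Map2, and neither was called. Its sums were 15.7 to 39.4 with vehicle and 13.1 to 49.3 with melatonin, and the part of such cells in the level of Sprn was not tested.

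Ly6c2 (ENSMUSG00000022584, chr15:74980003-74988467, minus strand) had normalized counts of 118, 94.0 and 111 with vehicle and 1.96, 0 and 3.47 with melatonin. Melatonin replicate 3 was the one melatonin sample above the floor, and no vehicle sample came near it. The lineage gate of the sort held Gr-1, an antibody known to bind Ly6G and Ly6C. The mean was 108 ± 12.4 with vehicle and 1.81 ± 1.74 with melatonin (SD, n = 3 each). It was 53.5-fold lower with melatonin, with a log2 difference of -5.52.

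Gm28042 (ENSMUSG00000033852, chr2:119857974-119873514, plus strand) had normalized counts of 56.9, 46.9 and 35 with vehicle and 0, 0.000155 and 2.42 with melatonin. The value in melatonin replicate 2 lies far below that of 1 read, which the authors' quantifier can divide among genes, and no melatonin sample rose above the floor. The mean was 46.3 ± 11.0 with vehicle and 0.805 ± 1.39 with melatonin (SD, n = 3 each). The ratio was 69.4, from 2 estimated counts with melatonin, and the log2 difference was -4.94. Its interval from counting error alone, 18.9 to 579, is no test either. Its level is uncertain, because 96.4% of the 50-base stretches of its transcripts also occur in transcripts of other listed genes, 71.9% in those of Pla2g4b and 24.6% in those of Jmjd7.

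Per kilobase of exon, the vehicle levels of the 7 genes spanned a wide range. Ldoc1 was at 551 ± 58.8 normalized counts per kb (SD, n = 3), above 89.0% of the 16334 genes with a length. Sprn at 37.9 ± 1.16 and Ly6c2 at 35.2 ± 4.04 per kb came next, and their ranges over the vehicle samples overlapped. Degs2 followed at 18.8 ± 7.0 per kb, between the ranges of Ly6c2 and Disp2. Disp2 at 11.2 ± 1.24, Gm28042 at 8.92 ± 2.12 and Plcd4 at 5.86 ± 1.26 per kb formed the low end, where each range overlapped the next. Plcd4 was above 23.2% of all genes, so the low members were in the lower part of the table even with vehicle.

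The vehicle samples did not rank the 7 genes alike. Vehicle replicate 1 was the highest of the 3 for 5 genes, vehicle replicate 2 for Degs2 and vehicle replicate 3 for Disp2. The coefficient of variation over the vehicle samples was 10.7% for Ldoc1, 37.3% for Degs2 and 3.08% for Sprn.

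The 7 genes were not alone in this pattern. Besides them, 16 genes lay within the same bounds, with no melatonin value above 5.03 and no vehicle value below 35. Just outside, Angptl2 reached 6.03 with melatonin and had 340.0 as its lowest vehicle value, and Ifng was at 0 with melatonin and at 32.8 in its lowest vehicle sample. By another count, 22 genes were at or under the floor in all melatonin samples and at 20 or more in all vehicle samples. Sprn, Disp2, Degs2 and Gm28042 were among these 22, at ranks 2, 3, 13 and 15 by vehicle mean. The mirrored pattern, at or under the floor with vehicle and at 20 or more in all melatonin samples, was found for 5 genes.

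The genes whose profile over the 6 samples was most like the mean of the 7 were found by Euclidean distance between log2(normalized count + 1) values, and all other genes of the table were compared. They were Ncr1, an activating receptor of natural killer (NK) cells, at a distance of 1.47, Mmp13, a collagenase, at 1.72, Xcl1, a chemokine, at 1.8, Gpr15, a homing receptor, at 1.85, and Klrk1, the NKG2D receptor, at 1.89. Ncr1 had normalized counts of 104, 101 and 114 with vehicle and 0, 0 and 1.01 with melatonin. Among the 7 genes, Ly6c2 lay nearest to their mean at a distance of 0.88 and Ldoc1 farthest at 5.45.

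Markers of several other cell types moved with the 7 genes, and those of others did not. The counts of called genes in these short lists stand beside 24.7% lower and 24.5% higher over all genes. All 3 tested genes of the NK list, of 5 listed and 6 asked for, were called lower, and its sum was 5944 to 7224 with vehicle and 75.6 to 210 with melatonin. Gzma, a granzyme, made up most of it, and Klrb1c was at 0 in all melatonin samples. The lineage gate, whose positive cells the sort removed, held CD335, the protein of Ncr1, and CD3e, CD5 and TCRb of T cells. It also held CD11b and Gr-1 of myeloid cells, CD11c of dendritic cells, CD45R of B cells and FceRIa of mast cells. In the monocyte or macrophage list, 5 of 9 tested genes were called lower and none higher, and the call of Adgre1 was kept in 3 of 6 fits that left out 1 sample. Its sum was 9252 to 11034 with vehicle and 875 to 1135 with melatonin. Most of it with vehicle came from the chemokine receptor Ccr2, which was at 509, 298 and 274 with melatonin beside 252, 635 and 575 for Lyz2, a lysozyme. Csf1r, which defines the lineage, was at 127, 50.5 and 61.6 with vehicle and at 0, 21.2 and 49.3 with melatonin and was not called. The T cell list, with 6 of 6 tested genes called lower, had sums of 6055 to 6580 with vehicle and 2128 to 3175 with melatonin. Trbc2, Trbc1 and Cd3g made up most of the sums with vehicle, with means of 3558, 1449 and 1062. Trac had a mean of 8.34 and Cd3d of 11.8 with vehicle, and Cd4, Cd8a, Cd8b1 and Cd5 were not listed. The calls of Trac and Cd3d were kept in 3 and 1 of 6 fits that left out 1 sample. In the neutrophil list, 2 of 3 tested genes were called lower and none higher, and Ly6g was not listed. The calls of S100a8 and Cxcr2 were kept in 5 and 4 of 6 such fits. Its sums were 85.9, 25.3 and 29.4 in vehicle replicates 1, 2 and 3 and 3.74 to 8.74 with melatonin. For epithelial cells, the sum was 895 to 2238 with vehicle and 1039 to 1237 with melatonin, which overlap, and 3 of its 5 tested genes were called lower. Scgb1a1, a club cell secretory protein, fell from 95.2, 21.5 and 1045 to 0, 0 and 1.01, and Sftpc, a surfactant protein, from 155, 122 and 389 to 6.54, 5.46 and 3.02. Krt8, a keratin, was the third that fell, and Epcam, an adhesion molecule, was called higher and made up most of the sum with melatonin, at 1230, 1016 and 1046. The eosinophil or mast cell sum was higher with melatonin, at 2186 to 5945 against 1918 to 2082 with vehicle, mainly from Kit, a stem cell factor receptor, which was called higher (kept in 3 of 6 fits), while Ccr3, an eotaxin receptor, was called lower. The dendritic sums, 766 to 815 with vehicle and 638 to 807 with melatonin, overlap. Xcr1, which was not called, made up most of them, with means of 652 with vehicle and 660 with melatonin. In this list, 1 of 3 tested genes was called lower, Itgax, with means of 117 and 27.0, a call kept in 3 of 6 fits. The B cell sums were 392 to 566 with vehicle and 145 to 241 with melatonin, with Cd79b called lower of 2 tested genes. The endothelial list had 1 of 6 genes listed, Pecam1, which was called lower, at 1001 to 1066 with vehicle and 310 to 416 with melatonin. The part of such cells in the levels of the 7 genes was not tested.

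**Figure D2:**
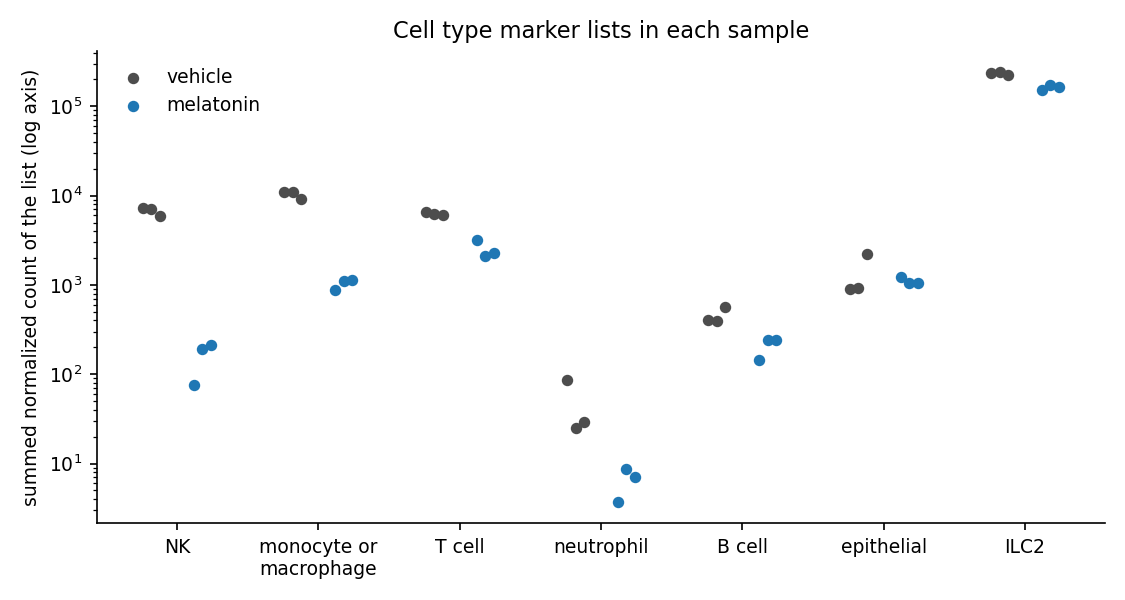
Summed normalized counts of 7 cell type marker lists in each vehicle and melatonin sample, on a log axis. The NK sums are 5944 to 7224 with vehicle and 75.6 to 210 with melatonin. The epithelial sums are 895 to 2238 and 1039 to 1237, most of the latter from Epcam, which was called higher, while 3 of the 5 tested genes of that list were called lower.

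The 7 genes lie on 6 chromosomes. The 250 bases upstream of the start of each gene's canonical transcript were read from the GRCm39 genome, and 4 windows are printed, those that no annotated exon overlaps and that hold at least 1 of the motifs searched. They are for Ldoc1 (chrX:60752853-60753102, plus strand), Degs2 (chr12:108668587-108668836, minus strand), Plcd4 (chr1:74581484-74581733, plus strand) and Sprn (chr7:139734791-139735040, minus strand). Each is written 5′ to 3′ on the strand of its gene and ends at the base before the start, and capitals mark motif letters.
Ldoc1: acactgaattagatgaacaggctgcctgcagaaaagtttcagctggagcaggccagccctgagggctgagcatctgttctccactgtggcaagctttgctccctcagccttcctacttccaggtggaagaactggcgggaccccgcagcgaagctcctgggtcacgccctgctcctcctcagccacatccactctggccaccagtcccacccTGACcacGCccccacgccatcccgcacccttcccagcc
Degs2: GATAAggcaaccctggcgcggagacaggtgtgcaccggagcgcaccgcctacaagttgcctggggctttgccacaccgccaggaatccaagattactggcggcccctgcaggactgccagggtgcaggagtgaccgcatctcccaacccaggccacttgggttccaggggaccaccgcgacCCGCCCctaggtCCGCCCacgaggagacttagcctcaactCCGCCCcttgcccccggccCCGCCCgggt
Plcd4: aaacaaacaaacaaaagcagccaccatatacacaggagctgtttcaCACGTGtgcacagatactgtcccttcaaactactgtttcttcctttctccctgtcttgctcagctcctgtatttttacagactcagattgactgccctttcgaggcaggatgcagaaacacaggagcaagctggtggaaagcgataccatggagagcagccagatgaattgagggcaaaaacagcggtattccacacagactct
Sprn: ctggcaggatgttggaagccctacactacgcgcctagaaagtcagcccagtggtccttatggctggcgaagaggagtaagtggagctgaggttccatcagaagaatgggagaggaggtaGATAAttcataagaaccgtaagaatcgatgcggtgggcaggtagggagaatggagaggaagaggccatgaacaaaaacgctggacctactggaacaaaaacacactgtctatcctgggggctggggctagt

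The motifs were searched on both strands, and their shares refer to the same window of 16333 genes. The GC box GGGCGG, which Sp1 is known to bind, occurred 4 times in the Degs2 window, at 69, 57, 29 and 10 bases upstream, and 3 times in that of Gm28042. It is in 42.7% of all windows. The GATA motif GATAA was in those of Degs2 and Sprn and in 19.3% of all. The antioxidant response element core TGACNNNGC was in the Ldoc1 window alone among the 7, starting 38 bases upstream, and in 10.3% of all. Plcd4 alone held the E-box CACGTG, at 204 bases upstream (6.8% of all), Disp2 alone the CCAAT box CCAAT, on the opposite strand (34.7%), and Gm28042 alone the TATA box TATAAA, on the opposite strand (9.4%). The AP-1 motif TGANTCA (5.0% of all), the ETS motif CCGGAA (15.9%) and the NF-kB motif GGACTTTCC (0.3%) were in none of the 7, and the Ly6c2 window held none of the motifs. No motif was in more than 2 of the 7. The windows differed in base composition too, from a GC content of 46.8% with 4 CpGs for Plcd4 to 68.0% with 17 CpGs for Degs2, with 49.6% and no CpG for Ly6c2, against medians of 54.8% and 11 CpGs over all.

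The next comparison asked whether the closest relatives of each gene were low as well. In the table, 16 of 26 relatives were listed, and they did not share a direction. Degs1, which makes ceramide from dihydroceramide and is 67.0% identical to Degs2 in coding sequence, rose from 6497, 6948 and 6011 to 9345, 10015 and 9637 (log2 fold change 0.58, SE 0.08, adjusted p = 0.00059, limma). It was far above Degs2 in level, at 1727 against 18.8 normalized counts per kb with vehicle. Disp1, 52.8% identical to Disp2, rose from 307, 338 and 295 to 478, 564 and 466 (log2 fold change 0.68, SE 0.12, adjusted p = 0.002, limma). Both thus rose where the member was at or near 0, and the vehicle level per kb of Disp1, 43.8, was above the 11.2 of Disp2.

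Prnp, the prion protein gene, rose from 1045, 1156 and 1135 to 5741, 3569 and 3367 (log2 fold change 1.88, SE 0.18, adjusted p = 0.00011, limma). Its log2 fold change was the largest among these relatives, with that of Peg10 close to it. Prnd, the Doppel gene, was at most at 4.6 in any sample and was not tested. Plcd1, 57.9% identical to Plcd4, was at 33.6, 45.9 and 65.1 with vehicle and at 30.8, 28.4 and 25.1 with melatonin. Its log2 fold change of -0.71 (SE 0.3) did not pass the test (adjusted p = 0.076, limma), but it did without vehicle replicate 1 (-0.94, adjusted p = 0.047). Plcd3 was low in both groups, at 6.85 ± 2.7 with vehicle and 10.4 ± 6.47 with melatonin (SD, n = 3 each), and was not called (adjusted p = 0.52, limma). Ldoc1 had 9 listed relatives among 18 retrotransposon-derived genes of the Rtl, Peg10, Arc and Pnma families asked for. Of these, none was called lower, where the shares over all genes were 24.7% lower and 24.5% higher. Peg10, which is needed for placenta formation, rose from 69.1, 70.3 and 61.9 to 261, 201 and 272 (log2 fold change 1.84, SE 0.17, adjusted p = 0.00011, limma), and Arc, a regulator of synapses, had a log2 fold change of 1.11 (SE 0.22, adjusted p = 0.0036). Pnma1 was called higher with a log2 fold change of 0.59, a call kept in 1 of 6 fits that each left out 1 sample. Rtl6, whose coding sequence is 39.8% identical to that of Ldoc1, was at 236, 230 and 211 with vehicle and 241, 270 and 255 with melatonin and was not called (log2 fold change 0.18, adjusted p = 0.25).

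Ly6c1 fell together with Ly6c2. It went from 1990, 1468 and 1327 to 58.7, 18.6 and 18.6 (log2 fold change -5.79, SE 0.4, adjusted p = 2.8e-05, limma), and its log2 fold change was -4.72 without melatonin replicates 2 and 3. Its coding sequence of 396 bases differs from that of Ly6c2 at 9 positions, and 33.1% of the 50-base stretches of Ly6c2 transcripts also occur in those of Ly6c1, so reads can be divided between them. With vehicle, Ly6c1 was at 483 normalized counts per kb against 35.2 for Ly6c2. The summed level of both genes had a log2 difference of -5.79.

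**Figure D3:**
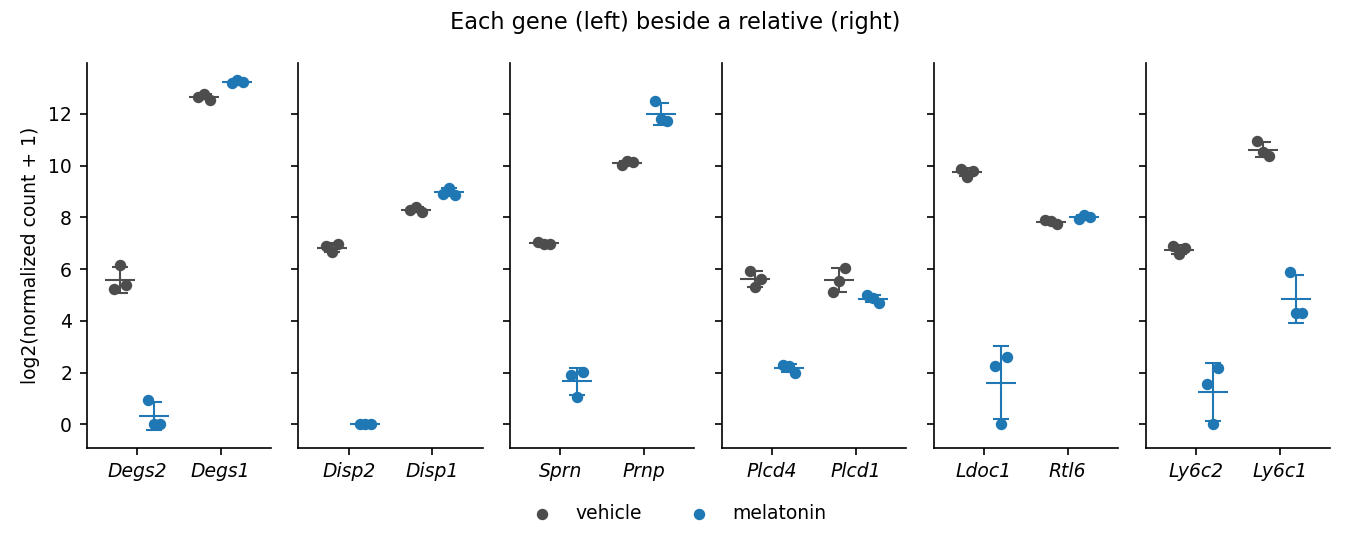
Shown are 6 of the genes (left in each panel) beside 1 relative each (right), as log2(normalized count + 1) in each sample, with the mean and SD of the log2 values. Degs1, Disp1 and Prnp are higher with melatonin, Plcd1 and Rtl6 were not called, and Ly6c1 is lower, from 1327 or more to 58.7 or less normalized counts.

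The pathway or family of each gene was then taken as a list, with the member itself left out. In the sphingolipid list of Degs2, 40 of 48 genes were tested, of which 25 (62.5%) were called higher, 3 (7.5%) lower and 12 neither (limma, against 24.5% higher and 24.7% lower over all genes). The median log2 fold change was 0.46, beside -0.00 over all genes. The rises included Acer2, an alkaline ceramidase, from 47.6, 42.2 and 43.0 to 256, 273 and 202 (log2 fold change 2.42, SE 0.18, adjusted p = 4.2e-05). Sgpp1, a sphingosine-1-phosphate phosphatase, at 1.32, Cers4, a ceramide synthase, at 1.27, and Sgpl1, the sphingosine-1-phosphate lyase, at 0.97 in log2 fold change also rose. Each of these 4 calls was kept in all 6 fits that left out 1 sample. The 3 that fell were S1pr1 and S1pr3, receptors of sphingosine-1-phosphate, and Fa2h, which hydroxylates the fatty acids of ceramides. S1pr1 went from 1302, 1348 and 1233 to 94.3, 244 and 258 (log2 fold change -2.83, SE 0.33, adjusted p = 0.00027), and Fa2h had a log2 fold change of -1.26 and S1pr3 of -3.67. Without melatonin replicates 2 and 3, S1pr1 was at -3.76 and S1pr3 at -1.42. Degs2, which was picked for its difference, was at -5.26 and below all tested genes of its list at this pseudocount of 1. At one of 10 it was at -2.47 and S1pr1 at -2.76.

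In the phosphoinositide list of Plcd4, 37 of 41 genes were tested, with 16 (43.2%) called higher, 3 (8.11%) lower and 18 neither (24.5% higher and 24.7% lower over all genes), and a median log2 fold change of 0.37. Plcb4, a phospholipase C of the beta type, rose from 439, 566 and 513 to 925, 1099 and 810 (log2 fold change 0.90, SE 0.14, adjusted p = 0.001, limma). The protein kinase C genes Prkce, at 1.18, and Prkcb, at 0.98, and Inpp5a, an inositol phosphatase, at 1.17 were called higher too. The call of Inpp5a was kept in 4 of 6 fits that left out 1 sample and that of Prkce in 5. The 3 lower genes were Itpr1, a calcium-releasing receptor of inositol trisphosphate, at -1.02, Pip5k1a, a kinase that makes the substrate of phospholipase C, at -0.60, and Plce1, another phospholipase C. Plce1 went from 29.9, 60 and 44.1 to 3.74, 8.74 and 9.05 (log2 fold change -2.51, SE 0.43, adjusted p = 0.0017). Its call was kept in all 6 fits, and its log2 fold change was -3.21 without melatonin replicates 2 and 3.

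For Disp2, the Hedgehog list had 19 of 33 genes listed and 17 tested, of which 6 (35.3%) were called higher, 4 (23.5%) lower and 7 neither (24.5% higher and 24.7% lower over all genes), with a median log2 fold change of -0.14. The share of lower calls was thus near that of all genes. No Hedgehog ligand gene of the list (Shh, Ihh or Dhh) was among those tested. Ptch1, the receptor of the ligands, fell from 254, 287 and 263 to 105, 140 and 132 (log2 fold change -1.10, SE 0.16, adjusted p = 0.00066, limma). Smo, the transducer that Ptch1 inhibits, had -0.86 (-1.48 without melatonin replicates 2 and 3), a call kept in 2 of 6 fits that left out 1 sample, and Sufu, which restrains the Gli factors, -0.37. The kinase gene Csnk1a1, which acts on Smo and Gli proteins, had -0.31. On the other side, Kif7, a kinesin of the cilium that acts on Gli factors, rose from 25.2, 20.6 and 23.1 to 137, 141 and 82.4 (log2 fold change 2.30, SE 0.27, adjusted p = 0.00027). Prkaca, a subunit of protein kinase A, at 1.10, Disp1 at 0.68 and Spop, a ubiquitin ligase adaptor, at 0.49 were called higher as well. Prkaca varied widely with vehicle (504, 1208 and 1587), and its call was kept in 4 of 6 fits. Gli1, a target of the pathway, was at 6.97 with vehicle and 2.28 with melatonin in the mean and was not called (adjusted p = 0.15).

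The Ly6 list of Ly6c2 had 10 of 34 genes tested, 6 (60%) called lower and 2 (20.0%) higher (24.7% lower and 24.5% higher over all genes), with a median log2 fold change of -1.36. Besides Ly6c1, Ly6a, which encodes Sca-1, fell from 24265, 17845 and 17109 to 2179, 434 and 538 (log2 fold change -4.61, SE 0.5, adjusted p = 0.00022, limma), at -3.16 without melatonin replicates 2 and 3. Cd59b, a complement inhibitor, went from 7.47, 10.3 and 7.34 to 0 in all melatonin samples. Plaur, the urokinase receptor, at -1.10, Ly6g5b at -1.62 and Ly6e at -1.05 were the other 3 called lower, and these calls were kept in 4, 2 and 1 of 6 fits that left out 1 sample. Without vehicle replicate 2, the list had 2 genes called lower. The 2 higher genes were Lypd6, with a log2 fold change of 3.05 from a level near 0, and Cd59a, with 0.69, a call kept in 1 of 6 fits. Restricted to the vehicle samples and melatonin replicate 1, Ly6g5b (log2 fold change -0.25, adjusted p = 0.54), Ly6e (-0.11, adjusted p = 0.37) and Lypd6 (2.97, adjusted p = 0.056) were not called, while Plaur was at -1.91.

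**Figure D4:**
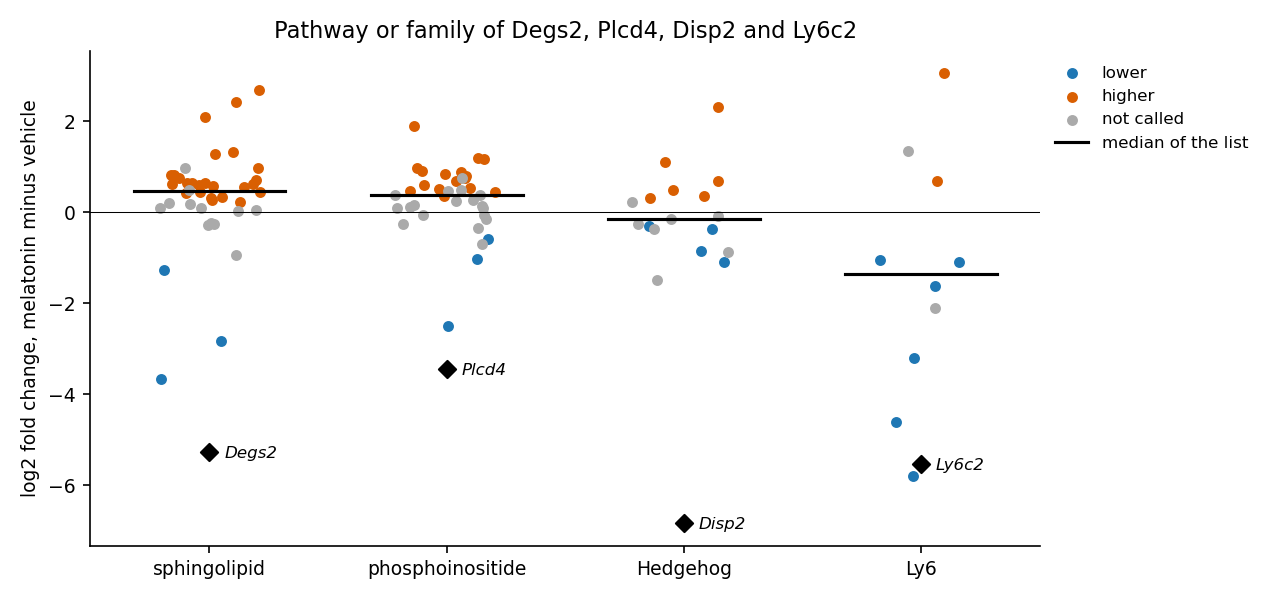
Log2 fold changes (melatonin minus vehicle) of all tested genes in 4 lists, colored by call (limma, adjusted p under 0.05), with the median of each list as a line and the member that led to the list as a black diamond, which carries no test. Medians are 0.46, 0.37, -0.14 and -1.36, and at this pseudocount of 1 Degs2, Plcd4 and Disp2 lie below every tested gene of their lists, which for Degs2 no longer holds at 10. The members were picked for this difference and the listed genes were not, so that place is no result about the lists.

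Around the 7 genes, 32 listed genes overlapped them or lay within 100 kb, and 30 of these were tested. Of the 30, 12 (40.0%) were called lower, 3 (10.0%) higher and 15 neither (limma), against 24.7% lower and 24.5% higher over all genes, with a median log2 fold change of -0.21 beside -0.00. Of the 12 lower, Jmjd7, Pla2g4b and Ly6c1 share much sequence with a member, so their calls are not independent of its level. Sprn and Gm28042 had most of the lower calls, with 5 of 6 and 3 of 5 tested neighbours. Plcd4 had no lower call among 8 tested neighbours and Ldoc1 none with 1.

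At the locus of Gm28042, Jmjd7 fell from 200, 197 and 194 to 17.7, 10.9 and 10.7 (log2 fold change -3.85, SE 0.25, adjusted p = 2.5e-05, limma). Pla2g4b fell from 9.49, 3.16 and 11.0 to 0, 1.09 and 0 (log2 fold change -2.65, SE 0.74, adjusted p = 0.016), a call kept in 4 of 6 fits that left out 1 sample. Both genes share exons with Gm28042, and summed with them its log2 difference was -4.06. Mapkbp1, which ends 0.1 kb upstream and encodes a kinase-binding scaffold, had -0.93 (adjusted p = 0.017, kept in 4 of 6 fits), while Ehd4 on the other side, 46.1 kb away, was not called (0.17, adjusted p = 0.16) unless melatonin replicate 1 was left out (0.26, adjusted p = 0.017).

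Next to Sprn, Mtg1, a mitochondrial GTPase gene that overlaps its end by 166 bases on the opposite strand, fell from 582, 571 and 539 to 374, 422 and 437 (log2 fold change -0.46, SE 0.1, adjusted p = 0.0068, limma). Paox, a polyamine oxidase gene 13.4 kb away, fell from 179, 169 and 154 to 66.3, 70.5 and 81.9 (log2 fold change -1.19, SE 0.17, adjusted p = 0.00066). On the other side, the scavenger receptor genes Scart1 and Scart2, 63.4 and 92.4 kb away, had log2 fold changes of -4.04 and -4.81, and that of Scart1 was -2.05 without melatonin replicates 2 and 3. Scart2 went from 26.1, 54.3 and 13.6 to 0 in all melatonin samples. Echs1, 34.0 kb away, was at 1199 ± 36.6 and 1293 ± 119 (SD, n = 3 each) and was not called. The fifth lower call was that of Fuom, 48.2 kb away, at -0.85 (adjusted p = 0.023, limma), kept in 3 of 6 fits that left out 1 sample.

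Disp2 lies 2.7 kb from Knstrn, a spindle gene, which went the other way, from 1380, 1321 and 1224 to 2080, 1810 and 1642 (log2 fold change 0.49, SE 0.1, adjusted p = 0.0046, limma). On its other side, Ccdc9b, 16.6 kb away, went from 18.7, 7.5 and 13.6 to 0 in all melatonin samples (log2 fold change -3.75, SE 0.63, adjusted p = 0.0016). Of the 7 tested neighbours of Disp2, 2 were called lower and 2 higher, near the shares of 24.7% and 24.5% over all genes. The lower call of Pak6 and the higher call of Bahd1 were each kept in 3 of 6 fits that left out 1 sample.

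Degs2 and Plcd4 overlap genes on the opposite strand. Evl, an actin regulator whose body overlaps that of Degs2 by 9809 bases and whose transcripts share 8.9% of its 50-base stretches, was at 370, 391 and 339 with vehicle and 428, 267 and 268 with melatonin and was not called (log2 fold change -0.23, adjusted p = 0.34, limma). Without melatonin replicate 1 it was called lower (-0.45, adjusted p = 0.011). Yy1, a transcription factor gene 90.3 kb from Degs2, fell from 974, 803 and 721 to 414, 295 and 412 (log2 fold change -1.16, SE 0.16, adjusted p = 0.00064). Zfp142 overlaps Plcd4 by 7653 bases and shares 37.3% of its 50-base stretches. It was at 626, 669 and 628 with vehicle and 663, 591 and 489 with melatonin, was not called (adjusted p = 0.33), and was thus far above Plcd4 in both groups. Usp37, a deubiquitinase gene at the other end of Plcd4, was called higher at 0.37 (adjusted p = 0.021), a call kept in 3 of 6 fits that left out 1 sample. Cnot9 and Bcs1l, the nearest genes that do not overlap Plcd4, were not called. Where a gene and its antisense partner overlap, the sources used here do not say that strand was used, so reads cannot be assigned between them with certainty. Ldoc1 shared no 50-base stretch with any listed gene, nor did Disp2. The one tested neighbour of Ldoc1, Gm7327 at 74.4 kb, was at 275, 262 and 311 with vehicle and 248, 263 and 244 with melatonin and was not called (adjusted p = 0.29, limma).

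**Figure D5:**
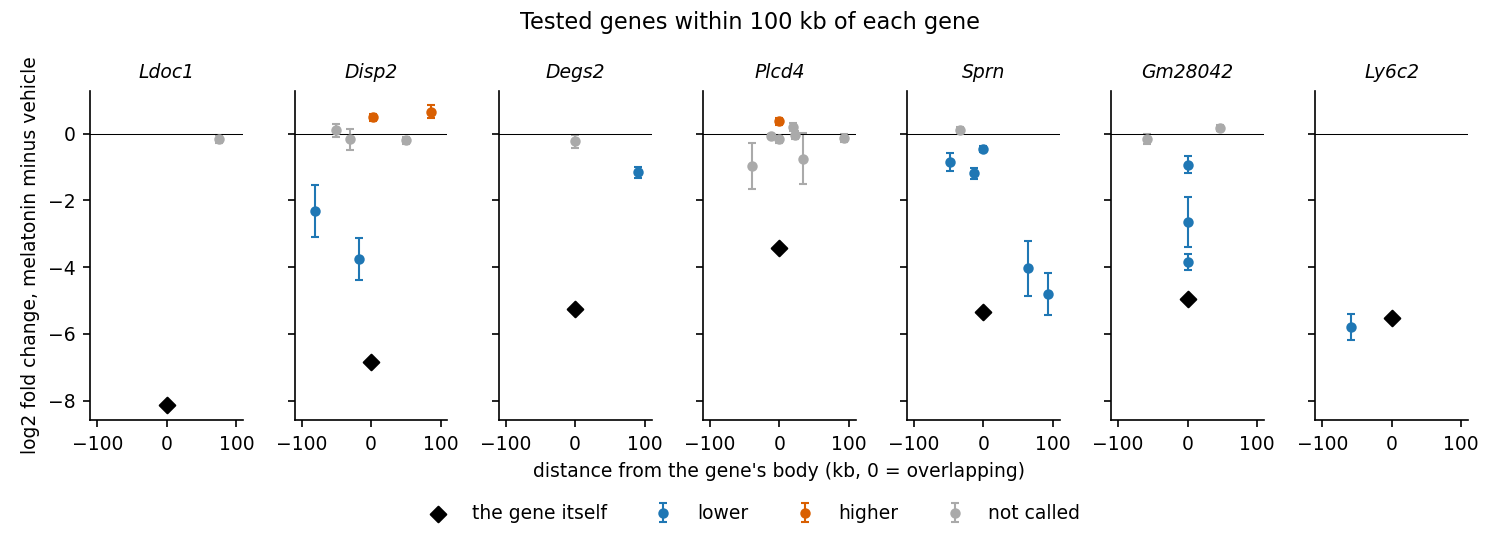
Log2 fold change (melatonin minus vehicle) of each tested gene within 100 kb of the 7 genes, against its distance in kb, with SE bars and colors by call (limma, adjusted p under 0.05). Overlapping genes are drawn at 0 and the black diamond is the gene itself, which carries no test. Around Sprn and Gm28042 most neighbours are lower (5 of 6 and 3 of 5), around Plcd4 none of 8 is.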

How the data were processed

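Bulk RNA sequencing was available for 3 melatonin and 3 vehicle samples. In Partek Flow 12.9.0, the authors trimmed reads by quality, mapped them to mm39 with STAR 2.7.8a and estimated counts for genes of Gencode M33 by the E/M method of that software. The methods name a filter of 10 counts in all samples. In the table, the estimated counts of a gene summed to at least 10 over the samples, and 1962 genes stayed under 10 normalized counts in each. Size factors by the median ratio method were used for scaling. The deposited values are therefore a signal, namely such estimates over a size factor. At a tolerance of 0.01, 65.8% of values were whole multiples of 1 read, so whole reads were not recovered and no count model was used for a test. Counting intervals took the estimated counts, rounded to whole numbers, as counts. The spacing of low values gave the value of 1 read and the estimated totals per sample.

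Genes were tested with limma 3.58.1 under R 4.3.3 (lmFit, eBayes with a trend) on log2(normalized count + 1). The design held treatment alone, and 14419 genes that reached 10 normalized counts in 1 or more samples entered, with Benjamini-Hochberg adjustment over them and a threshold of 0.05. The script was tested on simulated data. Gencode M39 gave names for 16334 of 16381 genes, positions and exon lengths. The members and lists were chosen with earlier results of these data known. Named genes were the 7 members, listed relatives, in each list the 4 largest called falls and rises with a mean of at least 50, the nearest tested neighbour on either side and overlapping genes, and the 5 most alike genes. S1pr3, Plce1, Ly6e, Cd59b, Lypd6, Cd59a, Gli1, Peg10, Arc, Pnma1, Csf1r, Scart2, Echs1, Fuom, Angptl2, Ifng and the other marker genes given beside their lists were named after their values were seen. Alternatives were other pseudocounts, filters, scalings and thresholds, limma without the trend, voom, a replicate block, leaving out each sample, and sums with overlapping genes. The fit on libraries with Y-linked transcripts was added after the data were seen.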

Additional observations from a re-analysis of the deposited data

How the results depend on the processing

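The 76 results were recomputed under up to 16 other fits, 6 of which left out 1 sample each. A gene that a filter dropped has no value there, as for the 6 members other than Ldoc1 with a mean of at least 100. None of the log2 differences of the 7 genes changed direction, except that of Plcd4 when summed with its overlapping genes. The genes were chosen for this difference in the same samples, so outside such sums the direction was set in advance and is no test. The sums with overlapping genes were 0.08 for Plcd4, -0.40 for Degs2, -0.75 for Sprn and -4.06 for Gm28042, where the overlapping genes of Plcd4, Degs2 and Sprn are far more abundant than the member. Because melatonin values were near zero, the size of the differences depended on the pseudocount. With 0.1 and with 10 they were -9.42 and -6.09 for Ldoc1, -10.14 and -3.62 for Disp2, -7.75 and -2.47 for Degs2, -3.73 and -2.10 for Plcd4, -5.86 and -3.49 for Sprn, -7.28 and -2.37 for Gm28042, and -6.89 and -3.32 for Ly6c2. With voom, Disp2 was at -7.77 and Degs2 at -5.99. At these depths, an estimated count of 3 or fewer cannot be told from absence.

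Leaving out 1 sample at a time gave -8.62 to -7.33 for Ldoc1, -6.92 to -6.76 for Disp2, -5.58 to -4.98 for Degs2, -3.60 to -3.29 for Plcd4, -5.51 to -5.04 for Sprn, -5.54 to -4.65 for Gm28042 and -5.97 to -4.89 for Ly6c2. It gave 2708 to 3619 genes lower and 2747 to 3454 higher, and in the lists 3 to 4 lower and 20 to 24 higher (sphingolipid), 3 to 5 lower and 13 to 16 higher (phosphoinositide), 3 to 5 lower and 4 to 6 higher (Hedgehog), 2 to 7 lower and 1 to 2 higher (Ly6), and 9 to 14 lower and 1 to 4 higher (neighbours). The phosphoinositide count was 5 lower without melatonin replicate 1. The neighbours had 1 higher call without vehicle replicate 1 or without vehicle replicate 2.

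At an adjusted p under 0.01, 2267 genes were lower and 2188 higher, with 9 phosphoinositide, 3 Hedgehog, 1 Ly6 and 1 neighbouring gene higher and 3 Ly6 genes lower. With a log2 fold change of at least 1 as well, 1392 were lower and 866 higher, with 5 sphingolipid, 3 phosphoinositide, 2 Hedgehog, 1 Ly6 and 0 neighbouring genes higher and 1 Hedgehog gene lower. Restricted to genes whose mean was 100 or more, 1 sphingolipid gene and 7 neighbours were lower and 0 Ly6 genes higher. Upper quartile scaling, which moved the median of all genes to -0.09, gave 5 lower sphingolipid, 5 lower phosphoinositide and 1 higher Ly6 gene, and a pseudocount of 0.1 gave 1 higher Ly6 gene. Under limma without the trend, Inpp5a (adjusted p = 0.079), Prkcb (0.054), Smo (0.073), Prkaca (0.088), Ly6g5b (0.077), Plaur (0.055) and Ly6e (0.088) lost their calls. Upper quartile scaling ended those of Usp37 (0.061), Cd59a (0.079) and Pnma1 (0.074), and Cd59a was also lost over all listed genes (0.058) and with a pseudocount of 0.1.

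The replicate block gave 3278 genes lower and 3160 higher and 1 higher Ly6 gene. It changed no other count by over 1.5 times. Among the named genes refitted, Cd59a (adjusted p = 0.072) and Pnma1 (0.054) lost their calls under it. The deviations of same-numbered samples had correlations of -0.106, 0.136 and -0.194, and the largest value, 0.31, was for melatonin replicate 3 with vehicle replicate 1. Each deviation was taken from the mean of only 3 samples, so these values cannot decide whether the numbers pair the samples.

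Only the libraries with Y-linked transcripts, chosen after the data were seen, left 1 melatonin sample, whose spread was assumed to be that of the vehicle samples. Degs2 was then at -4.63, 5 sphingolipid genes were lower and 0 Ly6 genes higher. Among called genes named and refitted, the differences of Ly6g5b (-0.25), Ly6e (-0.11), Ly6a (-3.16), Ly6c1 (-4.72), Scart1 (-2.05) and S1pr3 (-1.42) were smaller by over 1.5 times in fold, and those of S1pr1 (-3.76), Smo (-1.48), Plaur (-1.91) and Plce1 (-3.21) larger. The calls of Ly6g5b (adjusted p = 0.54), Ly6e (0.37), Cd59a (log2 fold change 0.48, 0.29) and Pnma1 (0.36, 0.28) were lost with smaller differences. Those of Prkce (1.39, adjusted p = 0.053), Inpp5a (1.24, 0.14), Prkaca (1.14, 0.14) and Lypd6 (2.97, 0.056) were lost at differences close to or above those over all samples (1.18, 1.17, 1.10 and 3.05), with fewer samples. Evl (0.22), Zfp142 (0.05) and Ehd4 (-0.00), none of them called, changed sign. Causes of these shifts were not tested, apart from the smaller sets tested under the stricter thresholds and filters.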
